A study of Mus musculus with 8 samples.

Results

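The levels of 10 genes that take actin filaments apart, recycle the released subunits or build filaments anew were followed on 8 arrays: Cap1, Gmfg, Wdr1, Cfl1, Coro1a, Pfn1, Tmsb4x, Arpc2, Arpc3 and Actb. They were chosen by symbol or older alias, on the changes these same arrays had shown, and 15 of the 41174 probes carry one of their names. All 10 genes were among the 22898 genes and unnamed probes tested. The choice used the same comparisons that are given here, so the changes of these genes are a description and count as no support for a change of the group.

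The study compared mouse haematopoietic stem cells (HSC), rare bone marrow cells that keep their own number and found every blood lineage, with and without E47. E47 is a basic helix-loop-helix transcription factor, a splice product of the gene Tcf3. The groups were KO HSC in secondary recipients, WT HSC in secondary recipients, KO HSC in primary recipients and WT HSC in primary recipients, with 2 arrays each. KO stands for an E47 knockout and WT for wild type. In every group the cells were donor-derived HSC isolated from recipient mice by flow cytometry. A secondary recipient is a mouse that receives cells already passed through a primary recipient. Strain, age, allele and the number of mice behind each sample are not stated in the labels. Per the labels' protocols, mRNA was copied to cDNA, amplified as a whole by PCR and labelled with the dye Cy3. The design text speaks of replicates from 4 samples, so the 2 arrays of a group may be technical replicates, and p-values then measure only the spread between arrays. All WT arrays lay on slide 1, the KO primary arrays on slide 2 and the KO secondary arrays on slide 3. KO against WT therefore cannot be told apart from slide, nor can secondary against primary recipients in KO cells, whereas both WT groups shared a slide.

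Actin filaments grow at one end and come apart at the other, and a cell that moves or changes shape has to run this cycle quickly. Cofilin (Cfl1) severs old filaments, helped by Wdr1, Coro1a and cyclase-associated protein (Cap1). Glia maturation factor gamma (Gmfg), found mainly in blood cells, takes apart the branches that the Arp2/3 complex makes. Profilin (Pfn1) hands free actin subunits back to growing ends, thymosin beta 4 (Tmsb4x) holds them in reserve, Arpc2 and Arpc3 are subunits of Arp2/3, and Actb is the beta actin of non-muscle cells. In blood cells these proteins serve homing, migration and contact with other cells.

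The arrays were unequal. From 74.5% to 90.7% of spots were well above background on the KO secondary arrays, 78% and 80.2% on the WT secondary arrays, 72.2% and 35.4% on the KO primary arrays, and 74% and 41.9% on the WT primary arrays. Replicate 2 of both primary groups was dim: the 75th percentile of its signal was 19.6 (KO) and 36.6 (WT), against 320.7 to 846.9 on the other 6 arrays. A level below is log2 of the processed signal minus log2 of this percentile, so a level of 0 lies at the percentile and a step of 1 is a doubling. On the dim arrays the low percentile thus raises the level of a bright probe. Some bright probes gave signals there within the range of the other arrays, and others, such as Tmsb4x, gave higher ones. Levels of different probes are not comparable with each other. The targeted gene gives no check of the labels: Tcf3 also encodes E12, the deleted part is not given, and its level was 1.33 and -1.36 in KO secondary, 1.07 and 1.28 in WT secondary, -2.09 and 2.37 in KO primary and -1.62 and 5.13 in WT primary arrays.

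The probes on which the results turn are shown by their first 30 of 60 bases, 5′ to 3′, because genes with more than 1 probe gave different answers. For Actb and the clone probe an aligned stretch of 30 bases is shown, with the bases they share in capitals. Positions are those of the array files (build mm8), and a span longer than the probe holds an intron. Exon and UTR annotation of that build was not used here.
Cap1, chr4:122362512-122364287, minus strand: gccaaatcttctgagatgaatgtcctcatt
Gmfg upstream, chr7:28150459-28152019, plus strand: tgctggaggatgaactccagaacatctccc
Gmfg downstream, chr7:28155222-28155281, plus strand: ggaatccttacttctgaaggctcagattga
Wdr1, chr5:38815142-38815201, minus strand: cgtgattggcagtttctttgcgtgtgtcgg
Cfl1 upstream, chr19:5493385-5493444, plus strand: caagcatgaattacaagctaactgctacga
Cfl1 downstream, chr19:5493882-5493941, plus strand: gtaaatgaaatgtggaaatgaccctccctg
Coro1a upstream, chr7:126491972-126492031, minus strand: tgacagctctatccggtattttgagatcac
Coro1a downstream, chr7:126491059-126491118, minus strand: ctggaggaggacgtgaggaatctgaacgcc
Actb, chr5:143168706-143168765, minus strand: AaCGGtGAAGGcGACAgCAGTtGGTtgGaG
Actb clone, chrX:147774990-147775049, plus strand: AcCGGgGAAGGtGACAtCAGTgGGTctGtG

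Cap1 and Gmfg, both of which take part in filament disassembly, stood apart between recipients. Cap1, and Gmfg by its upstream probe, were far higher in HSC from secondary than from primary recipients, in KO and in WT cells alike. Neither overlapped between the 4 secondary and the 4 primary arrays, as was the case, with secondary above primary, for 3.16% of all genes. The downstream Gmfg probe did overlap and is given below. Over both genotypes the measured difference was 7.74 (SE 0.88) on the log2 scale for Cap1 and 7.17 (SE 0.82) for Gmfg. Cap1 was not well above background on any of the 4 primary arrays and Gmfg not on 2 of them, so these sizes and their p-values rest in part on background readings, and both genes entered the test through the secondary groups. Neither passed the threshold, an adjusted p under 0.05 after Benjamini-Hochberg correction over all 22898 genes and probes (limma, adjusted p = 0.0576 for both genes). In that comparison 0 of the 10 genes and 0% of all genes were called. Log2 changes are given relative to the change of the median gene, which was -0.73 here, while the p-values belong to the uncentred change.

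Cap1 levels were 1.12 and 3.37 in KO secondary and 2.19 and 2.02 in WT secondary arrays, against -5.59 and -3.30 in KO primary and -6.23 and -4.24 in WT primary arrays. The signals behind them were 1444 and 4460 in KO secondary and 3853 and 2952 in WT secondary arrays, against 7.42 and 1.99 in KO primary and 4.29 and 1.94 in WT primary arrays. The probe was well above background on every secondary array and on no primary array, so only a bound can be given. Over both genotypes Cap1 was at least 47.5-fold higher in secondary recipients, with the mean of the secondary arrays set against the lowest signal well above background on each primary array, or the probe's own where higher. The bound was at least 40.6-fold in KO cells (limma, adjusted p = 0.694) and at least 55.5-fold in WT cells, where both groups lay on 1 slide (adjusted p = 0.323). These bounds are not relative to the median gene and hold only for this background subtraction and scaling. With another background correction (normexp) the measured change over both genotypes was smaller, 4.36 (SE 0.68) relative to the median gene. Without both dim arrays, which leaves 1 array in each primary group, the measured difference was 8.67 (SE 0.83, limma, adjusted p = 0.0615).

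Gmfg has an upstream and a downstream probe, and they gave different pictures. The upstream probe was used for the gene because its mean level over all 8 arrays was the higher. That lead came from the secondary arrays. On the bright primary arrays the downstream probe had the higher signal, 1306 (KO) and 2208 (WT), against 49.3 and 163 upstream. The upstream probe had levels of 3.44 and 4.45 in KO secondary and 3.85 and 3.07 in WT secondary arrays, against -2.86 and -3.34 in KO primary and -0.98 and -3.78 in WT primary arrays. On both dim arrays it was not well above background. Its difference between recipients was 7.57 (SE 1.2) in KO cells and 6.83 (SE 1.2) in WT cells, and 6.21 (SE 0.83, limma, adjusted p = 0.0915) over both genotypes without the dim arrays. The downstream probe read otherwise on the bright arrays. Its levels were 2.13 and 1.68 in KO secondary and 1.25 and 0.82 in WT secondary arrays, against 1.87 and -3.47 in KO primary and 2.78 and -4.37 in WT primary arrays. Only the dim arrays, where it too was not well above background, lay below the secondary ones. For this probe the difference between recipients was 2.79 (SE 1.66, limma, adjusted p = 0.473).

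**Figure D1:**
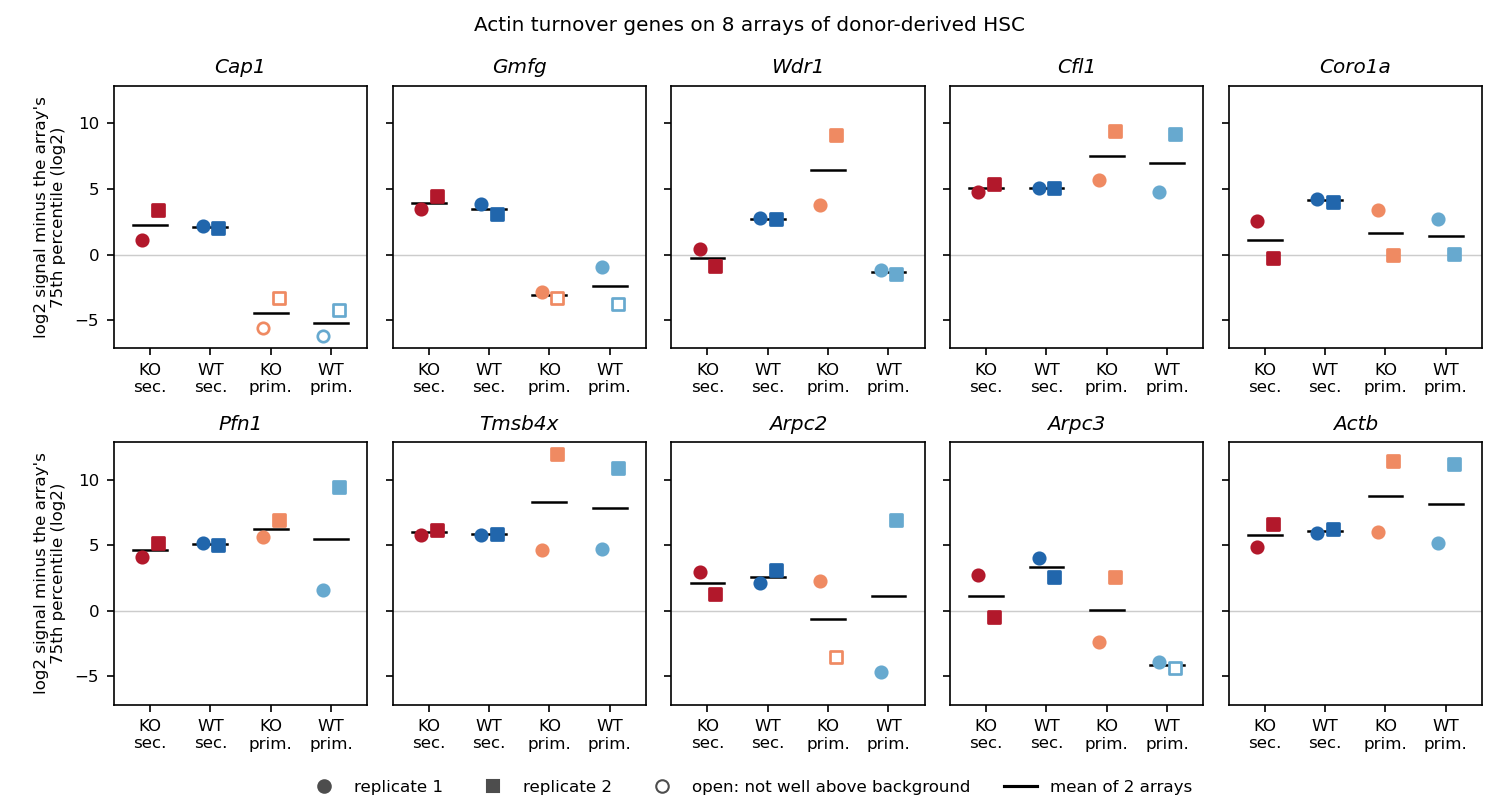
Level of each gene on each of the 8 arrays, as log2 signal minus the array's 75th percentile (vertical axis, log2), with KO secondary, WT secondary, KO primary and WT primary recipients from left to right; circles are replicate 1, squares replicate 2, open symbols are not well above background and bars are means of 2 arrays. Cap1 and Gmfg are high on all 4 secondary arrays, Wdr1 is high in KO primary (3.75 and 9.14) and low in WT primary arrays (-1.19 and -1.49), and squares stand far above circles for Actb and Tmsb4x in both primary groups. Gmfg is drawn by its upstream probe, and its downstream probe read otherwise on the bright primary arrays.

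When each of the 32776 probes well above background on both arrays of some group was fitted alone, 101 probes (0.308%) were higher in secondary recipients at an adjusted p under 0.05. The Cap1 probe and the upstream Gmfg probe were among them, each with an adjusted p of 0.0464 (limma). Whether these 2 genes passed thus depended on the number and kind of features tested. The downstream Gmfg probe did not pass in that fit.

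The cells of primary and secondary recipients also differed in other cells' markers. The 10 neutrophil markers held 0.00971% to 0.0303% of all signal on the secondary arrays, against 0.281% to 1.5% on the primary arrays, with 7 to 9 of 10 well above background against 9 to 10 of 10. S100a8, an abundant protein of neutrophils, was lower by far in secondary recipients (log2 change -14.23, SE 1.88, limma, adjusted p = 0.0576) and was not well above background on 3 of the 4 secondary arrays. The 10 HSC markers held 0.0841% to 0.125% on the secondary arrays, all 10 above background, against 0.00111% to 0.135% with 5 to 10 above background on the primary arrays. Hlf, a transcription factor typical of HSC, was higher in secondary recipients by 5.66 (SE 0.70, limma, adjusted p = 0.0576). Neither dim array measured Hlf well above background, so this size rests in part on background readings. The part of these cells in the Cap1 and Gmfg differences was not tested. In such bulk samples fewer cells of a type and less RNA per cell cannot be told apart.

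Wdr1, which helps cofilin sever and disassemble filaments, had KO and WT arrays in opposite order in the 2 kinds of recipient. Its levels were 0.39 and -0.87 in KO secondary arrays, against 2.80 and 2.69 in WT secondary arrays. In primary recipients they were 3.75 and 9.14 in KO arrays, against -1.19 and -1.49 in WT arrays. KO arrays thus lay below WT arrays in secondary recipients and above them in primary recipients, without overlap in either, as did 4.47% of all genes in one order or the other. Every array measured this probe well above background. Its KO signals in primary recipients were 4819 and 11076, against 140 and 13 in WT. On the log2 scale KO cells differed from WT cells by -3.44 (SE 1.69, limma, adjusted p = 0.985) in secondary and 7.51 (SE 1.69, adjusted p = 0.995) in primary recipients. The difference between them, the interaction, was -11.04 (SE 2.39, limma, adjusted p = 1). Without both dim arrays the change in primary recipients was 4.81 (SE 1.1, limma, adjusted p = 0.403) and the interaction -8.33 (SE 1.34, adjusted p = 0.5). These values set 1 KO against 1 WT array in primary recipients, with the spread taken from the secondary groups and the lone arrays assumed to vary like them. KO and WT lay on different slides in both recipients.

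Seen between recipients, Wdr1 was lower in secondary than in primary recipients in KO cells (log2 change -6.16, SE 1.69, limma, adjusted p = 0.699) and higher in WT cells (5.08, SE 1.69, adjusted p = 0.412). The same 4 groups enter both ways of looking, so these values repeat the interaction. Over both genotypes the changes offset each other, at -0.57 (SE 2.17, limma, adjusted p = 0.754).

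**Figure D2:**
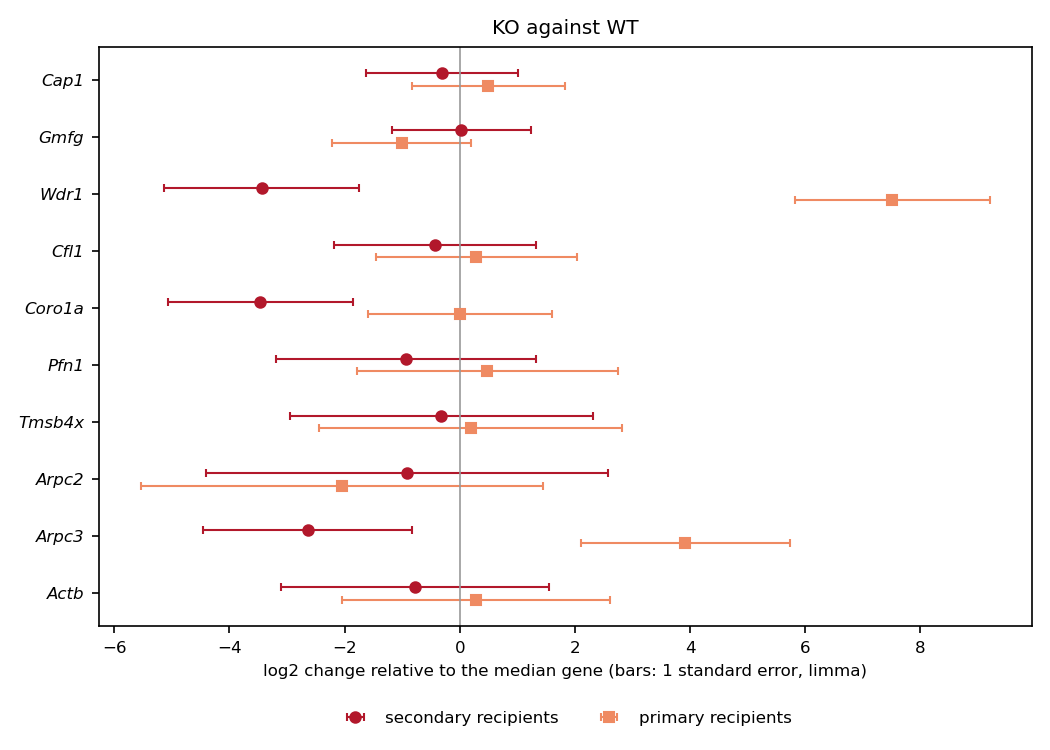
Log2 change of KO against WT for each gene (horizontal axis, relative to the median gene) in secondary recipients (circles) and primary recipients (squares), with bars of 1 standard error from limma. Wdr1 stands at -3.44 in secondary and 7.51 in primary recipients, and 9 of the 10 genes lie below 0 in secondary recipients. So did 11 of 12 widely used reference genes, which are not drawn.

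In KO against WT, 0 of the 10 genes were called in secondary, in primary or in both recipients, as were 0% of all genes in each of these comparisons. In secondary recipients 1 gene lay above and 9 below the median gene, with a median of -0.85, where 50% of all genes lie above by construction. Of 12 widely used reference genes 1 lay above and 11 below, and of 88 other actin genes 24 above and 64 below. The median gene itself changed by 0.45. The uncentred changes of Cap1 (0.14), Cfl1 (0.03), Gmfg (0.48) and Tmsb4x (0.13) were above 0. At an unadjusted p under 0.05 stood 0 of the 10 genes, against 5.38% of all genes (3.69% in the higher direction). KO arrays lay above WT arrays without overlap for 0 of the 10 genes, against 34% of all genes. In primary recipients 7 genes lay above and 3 below, with a median of 0.29. Wdr1 alone had an unadjusted p under 0.05 there, in the higher direction, as did 1.98% of all genes (3.96% in either direction), and KO arrays lay below WT arrays without overlap for 0 of the 10 genes, against 9.13% of all genes. Over both recipients the median was -0.11, with 3 above and 7 below, and 0 of the 10 genes had an unadjusted p under 0.05, against 4.68% of all genes (3.52% in the higher direction).

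Cfl1 encodes cofilin, the main filament-severing protein of non-muscle cells, and was close to even among the secondary arrays. Its downstream probe, used for the gene, had levels of 4.79 and 5.38 in KO secondary and 5.07 and 5.05 in WT secondary arrays, against 5.65 and 9.40 in KO primary and 4.75 and 9.15 in WT primary arrays. The high values are those of the dim arrays, whose signals of 13277 (KO) and 20837 (WT) lay within the range of 8650 to 28366 on the other arrays. The difference between recipients was -1.44 (SE 1.16, limma, adjusted p = 0.321) and turned to 0.46 (SE 0.61, adjusted p = 0.921) without the dim arrays and 0.83 (SE 0.65, adjusted p = 0.743) with quantile normalization. The upstream probe had levels of 4.08 and 4.37 in KO secondary and 4.65 and 4.61 in WT secondary arrays, against 3.79 and 0.24 in KO primary and 3.82 and 10.42 in WT primary arrays. On the dim KO primary array it gave a signal of 23.2, against 50018 on the dim WT primary array.

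Coro1a encodes coronin 1A, the coronin of blood cells, which binds filaments and guides cofilin and Arp2/3. Its downstream probe, used for the gene, had levels of 2.54 and -0.28 in KO secondary arrays, against 4.24 and 4.03 in WT secondary arrays. In primary recipients it had 3.36 and -0.01 in KO arrays, against 2.71 and 0.07 in WT arrays. The KO secondary arrays lay below both WT secondary arrays (log2 change -3.46, SE 1.60, limma, adjusted p = 0.985), as was the case for 2 of the 10 genes, Coro1a and Wdr1, and for 12.3% of all genes. The upstream probe did not repeat this: its levels were 2.56 and 4.34 in KO secondary arrays, against 3.36 and 4.08 in WT secondary arrays. In primary recipients that probe had 3.33 and 1.34 in KO arrays, against -2.20 and -0.26 in WT arrays. Its change of KO against WT was -0.66 (SE 1.29, limma, adjusted p = 0.995) in secondary and 3.23 (SE 1.29, adjusted p = 0.999) in primary recipients.

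**Figure D3:**
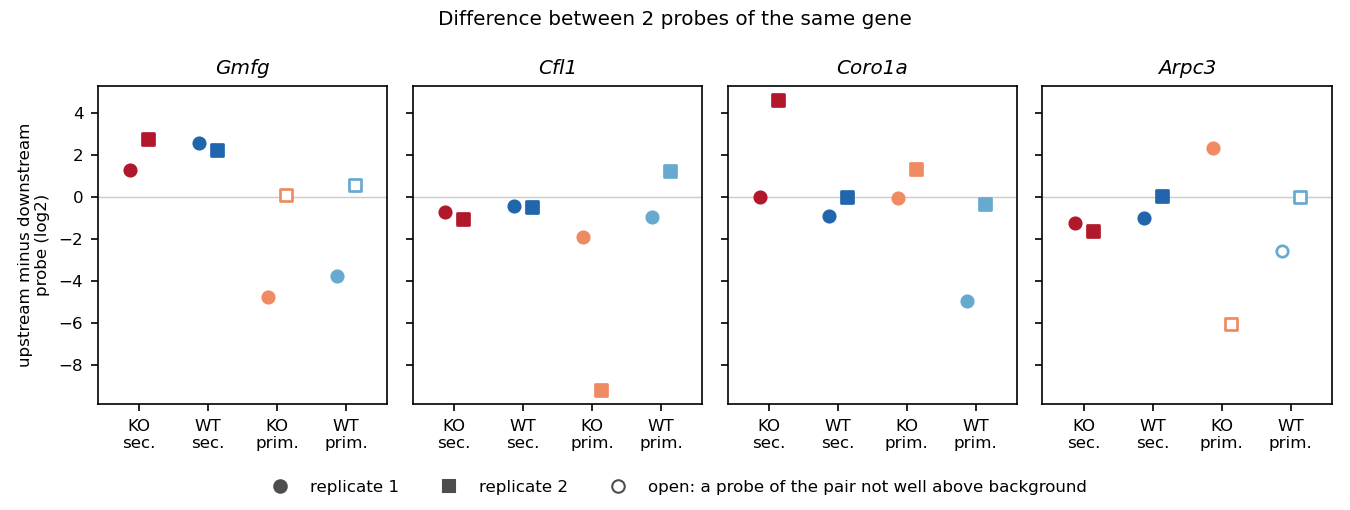
Level of the upstream probe minus that of the downstream probe (vertical axis, log2) for the 4 genes with 2 probes, on each array, with KO secondary, WT secondary, KO primary and WT primary recipients from left to right; open symbols have a probe of the pair not well above background. Gmfg runs from 1.31 to 2.77 on the secondary arrays and lies at -4.73 (KO) and -3.76 (WT) on the bright primary arrays, and Cfl1 lies at -9.16 on 1 KO primary array.

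Probes of the same gene would keep a fixed difference on every array if they read the same transcripts equally. For Gmfg the upstream minus downstream difference was 1.31 and 2.77 in KO secondary and 2.61 and 2.25 in WT secondary arrays, against -4.73 in KO primary and -3.76 in WT primary arrays of replicate 1. Both probes were well above background on those 6 arrays, so the 2 Gmfg probes moved apart between recipients there. Averaged over all 8 arrays, the shift between recipients was 4.18 in size, against a median of 1.33 over the 3457 pairs of probes on the array. It was 2.03 for Cfl1, 1.93 for Coro1a and 0.61 for Arpc3. For Cfl1 the difference lay between -1.87 and 1.26 on 7 arrays and at -9.16 on the dim KO primary array. For Coro1a it was 4.62 on KO secondary replicate 2 and -4.91 on WT primary replicate 1, and between -0.88 and 1.35 on the other 6 arrays. Over 531 pairs measured on all arrays, the median absolute deviation from a pair's own mean was 0.61 to 0.93 on the bright arrays, and 1.35 (KO) and 1.21 (WT) on the dim ones.

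Pfn1 and Tmsb4x, which bind free actin subunits, were more even among the secondary than among the primary arrays. Pfn1 levels were 4.08 and 5.15 in KO secondary and 5.18 and 5.0 in WT secondary arrays, against 5.62 and 6.90 in KO primary and 1.59 and 9.40 in WT primary arrays. The 2 WT primary arrays enclosed all other values. The difference between recipients was -0.30 (SE 1.51, limma, adjusted p = 0.719), but 1.83 without the dim arrays and 1.91 with quantile normalization. Tmsb4x levels were 5.76 and 6.19 in KO secondary and 5.80 and 5.88 in WT secondary arrays, against 4.66 and 11.93 in KO primary and 4.74 and 10.90 in WT primary arrays. The Tmsb4x signals on the dim arrays, 76797 (KO) and 69990 (WT), lay above the range of 8550 to 47307 on the other arrays. The Tmsb4x difference between recipients was -1.42 (SE 1.75, limma, adjusted p = 0.496). It was 1.80 without the dim arrays and 0.74 with quantile normalization, in the opposite direction.

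Arpc2 and Arpc3 are subunits of the Arp2/3 complex, which starts new filaments as branches on old ones. Arpc3 was higher in secondary than in primary recipients in WT cells. Its downstream probe, used for the gene, had levels of 2.71 and -0.46 in KO secondary and 4.03 and 2.59 in WT secondary arrays, against -2.40 and 2.55 in KO primary and -3.90 and -4.37 in WT primary arrays. The upstream probe had 1.49 and -2.07 in KO secondary and 3.06 and 2.65 in WT secondary arrays, against -0.05 and -3.46 in KO primary and -6.44 and -4.36 in WT primary arrays. In WT cells neither probe overlapped between recipients, and in KO cells both did. Of all genes, 15.3% did not overlap in WT cells with secondary above primary. In WT primary recipients the downstream probe was not well above background on replicate 2 and the upstream probe on neither array, so the size of the WT difference rests in part on background readings. The measured change was 8.44 (SE 1.81, limma, adjusted p = 0.358) in WT cells, 1.58 (SE 1.81, adjusted p = 0.874) in KO cells and 4.98 (SE 1.63, adjusted p = 0.249) over both. The KO primary arrays lay above the WT primary arrays (3.92, SE 1.81, limma, adjusted p = 0.995), as for 2 of the 10 genes, Arpc3 and Wdr1, and for 16.9% of all genes. The interaction was -6.66 (SE 2.56, limma, adjusted p = 1).

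Arpc2 varied so widely in primary recipients that no direction can be given. Its levels were 2.95 and 1.3 in KO secondary and 2.10 and 3.08 in WT secondary arrays, against 2.24 and -3.49 in KO primary and -4.63 and 6.89 in WT primary arrays. The gap between the 2 WT primary arrays was 11.52, the widest of the 10 genes in any group. The difference between recipients was 2.84 (SE 2.33, limma, adjusted p = 0.623). In KO against WT primary arrays it was -2.04 (SE 3.49, limma, adjusted p = 0.995), and 6.73 (SE 1.31, adjusted p = 0.391) without the dim arrays, in the opposite direction, from 1 array per genotype with the spread taken from the secondary groups.

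Actb, beta actin itself, had levels of 4.87 and 6.62 in KO secondary and 5.93 and 6.22 in WT secondary arrays, against 6.0 and 11.42 in KO primary and 5.13 and 11.15 in WT primary arrays. Its signals on the dim arrays, 53946 (KO) and 83181 (WT), lay within (KO) and above (WT) the range of 11247 to 54391 on the other 6 arrays. The probe was spotted 10 times per array, and the SD of log2 signal over these spots was 0.0301 to 0.0824, which covers the spread between spots only. The difference between recipients was -1.78 (SE 1.55, limma, adjusted p = 0.377), and 0.81 (SE 0.64, adjusted p = 0.861) without the dim arrays and 0.36 (SE 0.68, adjusted p = 0.966) with quantile normalization, both in the opposite direction. A second probe with this symbol, designed on a cDNA clone that the files place on chromosome X, shared 22 of 30 aligned bases with the Actb probe shown above. Its level differed from that of the Actb probe by -0.46 to 0.46 over the 8 arrays, and the levels of the 2 probes correlated with r = 0.995. The shared bases and shared arrays mean that these are not independent readings.

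**Figure D4:**
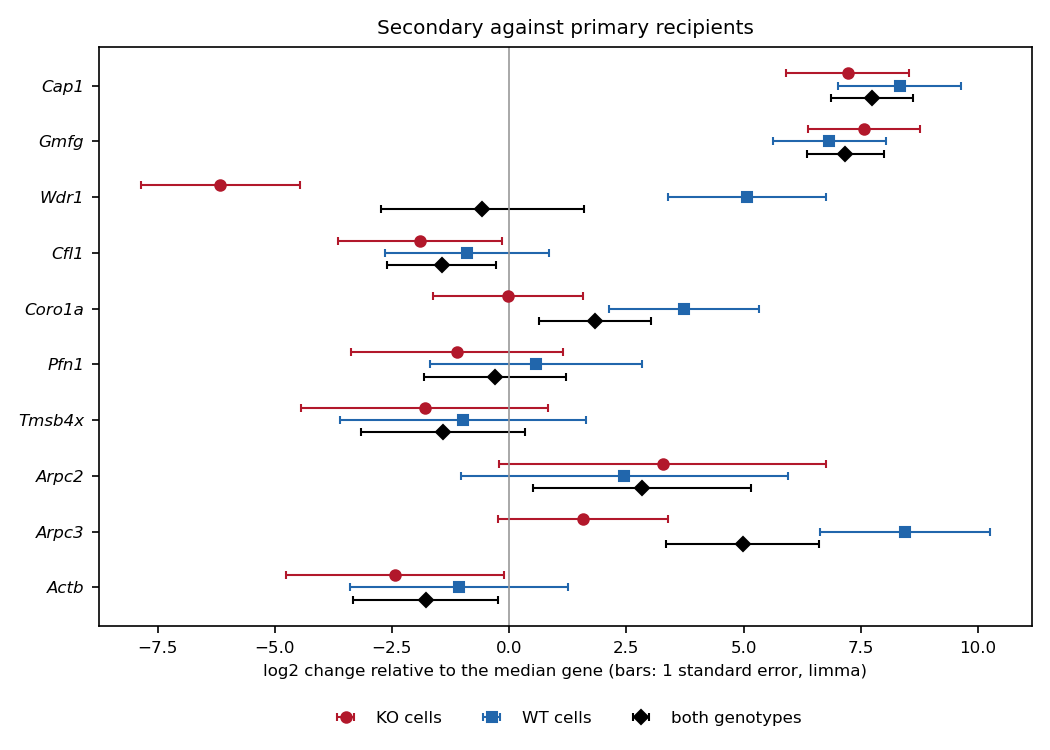
Log2 change of secondary against primary recipients for each gene (horizontal axis, relative to the median gene) in KO cells (circles), WT cells (squares) and both genotypes (diamonds), with bars of 1 standard error from limma. Cap1 (7.22 in KO, 8.33 in WT) and Gmfg (7.57 in KO, 6.83 in WT) lie far to the right in both genotypes, and Wdr1 (-6.16 in KO, 5.08 in WT) lies on opposite sides of 0. Gmfg is drawn by its upstream probe, and its downstream probe read otherwise.

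Between recipients the 10 genes did not move one way. Over both genotypes 5 lay above and 5 below the median gene, with a median of 0.77, and 3 (Cap1, Gmfg and Arpc3) had an unadjusted p under 0.05 in the higher direction, as did 5.52% of all genes. Groups that did not overlap, with secondary above primary, were found for 2 of the 10 genes and for 3.16% of all genes. In KO cells 0 of the 10 genes and 0% of all genes were called, and the median was -0.57. In that comparison Cap1 and Gmfg had an unadjusted p under 0.05 in the higher direction (3.28% of all genes) and Wdr1 in the lower (2.76% of all genes), 3 in either direction (6.04% of all genes). There 3 genes (Cfl1, Pfn1 and Wdr1) did not overlap with secondary below primary, as did 28.5% of all genes. In WT cells, within 1 slide, 0 of the 10 genes and 0% of all genes were called, the median was 3.10, and 7 genes lay above and 3 below the median gene. There 4 genes, Cap1, Gmfg, Arpc3 and Wdr1, had an unadjusted p under 0.05 in the higher direction (5.45% of all genes), and 5 did not overlap, secondary above primary (15.3% of all genes). In the lower direction the counts were 0 by unadjusted p (6.54% of all genes) and 0 by lack of overlap (40.1% of all genes). The interaction called 0 of the 10 genes and 0% of all genes, and Wdr1 and Arpc3 had an unadjusted p under 0.05 in the lower direction, as did 1.75% of all genes (3.74% in either direction). Since the genes were chosen with these comparisons in view, nothing is read from the counts.

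The median gap between replicate arrays was larger for these genes than for all genes in each group but WT secondary. For the 10 genes it was 1.46 in KO secondary, 0.19 in WT secondary, 4.35 in KO primary and 3.6 in WT primary arrays. Over all genes it was 1.09, 0.82, 1.71 and 1.56 in the same order of groups. The 10 genes together held 0.266% and 0.344% of all signal on the KO secondary, 0.383% and 0.372% on the WT secondary, 0.268% and 0.762% on the KO primary and 0.134% and 0.423% on the WT primary arrays. All 10 were well above background on every secondary array, 9 on replicate 1 and 7 on replicate 2 of each primary group.

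The levels of some of the 10 genes followed each other over the 8 arrays and those of others did not. Of the 45 pairs of genes, 25 had a Pearson correlation above 0, with a median of 0.06. Over the 6 arrays that were not dim, 33 were above 0, with a median of 0.41. The highest correlations were 0.99 between Cfl1 and Actb, 0.97 between Tmsb4x and Actb, 0.96 between Cfl1 and Tmsb4x and 0.90 between Cap1 and Gmfg. Over those 6 arrays the same pairs had 0.72, 0.41, -0.10 and 0.96. All pairs share the same arrays and their scaling. Tested genes outside the group were ranked by the correlation of their level with the median level of the 10 genes over the 8 arrays. The highest were the clone-named AK035454 (r = 0.954), Ifi205, an interferon-inducible gene (r = 0.946), and Hdgfl3 (r = 0.945). Next came Pik3r1, a regulatory subunit of phosphoinositide 3-kinase (r = 0.922), and Hspa4, a heat shock protein (r = 0.920). The median level of the 10 genes was 0.31 on WT primary replicate 1 and 3.2 to 4.73 on the other arrays. All the listed genes had their lowest level on that array too. How far their correlations rest on this array was not tested. AK035454 and Hspa4 were not well above background there, nor was AK035454 on either dim array.

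Of 91 other genes of the actin cycle, listed by role, 88 were tested, and Cfl2, Tesk2 and Elk1 were not above background in both arrays of any group. In all 7 comparisons 0 of the 88 were called. Between recipients over both genotypes, 11 were higher and 5 lower at an unadjusted p under 0.05, as were 5.52% and 13.7% of all genes. The lowest p belonged to 3 genes that were higher and 1 that was lower in secondary recipients. Nckap1l, the blood-cell subunit of the WAVE complex that switches on Arp2/3, had levels of 1.63 and 2.24 in KO secondary and 2.93 and 1.65 in WT secondary arrays, against -5.50 and -1.01 in KO primary and -5.58 and -2.72 in WT primary arrays. The secondary arrays lay above the primary ones without overlap, as for 3.16% of all genes, and the change was 6.55 (SE 1.13, limma, adjusted p = 0.098). It was well above background on only 1 primary array. Capg, which caps growing filament ends, differed by 5.64 (SE 0.96, limma, adjusted p = 0.098). Cyfip2, another WAVE complex subunit and not above background on 3 of the 4 primary arrays, differed by 5.78 (SE 1.11, limma, adjusted p = 0.129). Wasf3, a WAVE protein, was lower by -1.92 (SE 0.61, limma, adjusted p = 0.142), with -0.99 and -0.85 in KO secondary and -1.90 and -1.94 in WT secondary arrays, against 1.57 and 2.38 in KO primary and 0.66 and 0.32 in WT primary arrays.

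By role, the median change between recipients was 1.05 for the 7 other Arp2/3 subunits and 0.77 for 17 activators of Arp2/3. It was 0.71 for 8 formins, which build unbranched filaments, 0.51 for 7 tropomyosins and tropomodulins, 0.52 for 12 relatives and regulators of cofilin, and 1.16 for 3 profilins and thymosins. It was 0.81 for the serum response factor and 3 cofactors, 0.05 for 6 other coronins, -0.29 for 10 capping and severing proteins and -0.68 for 5 other actin isoforms, while 12 widely used reference genes had -0.04. Of the 17 activators, 3 were higher and 2 lower at an unadjusted p under 0.05, as were 5.52% and 13.7% of all genes. Each other list here had at most 1 higher and at most 1 lower.

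**Figure D5:**
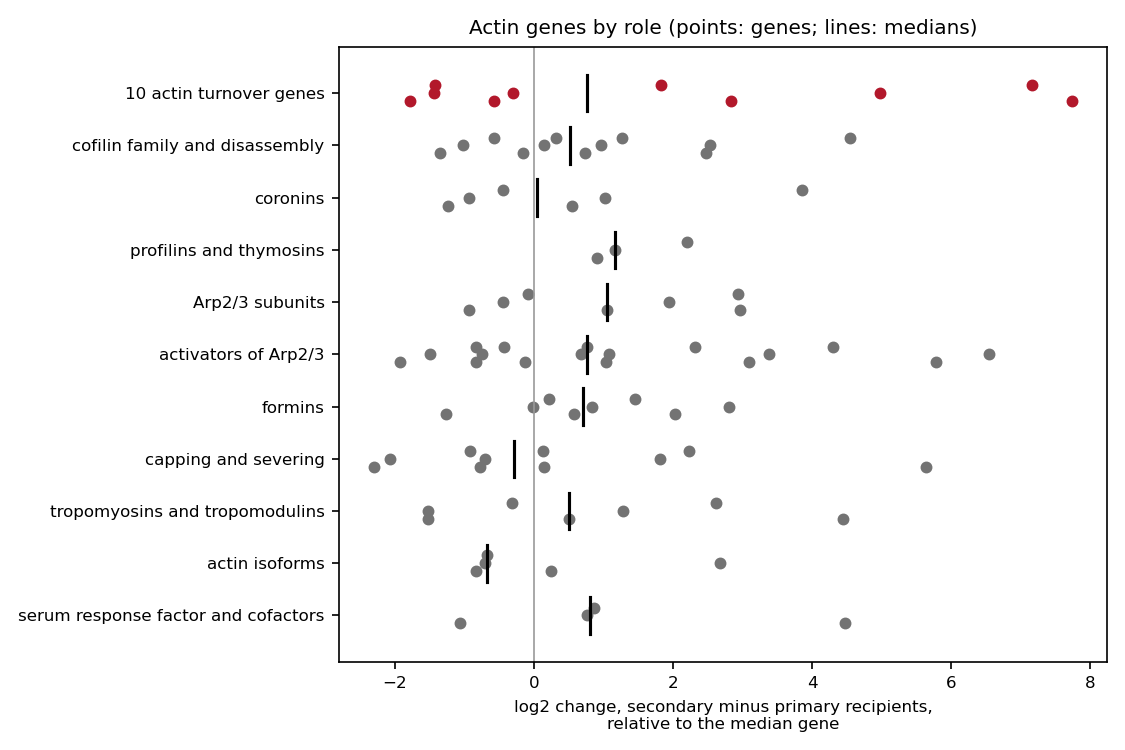
Log2 change of secondary against primary recipients over both genotypes (horizontal axis, relative to the median gene) for the 10 actin turnover genes in red and other actin genes by role in grey, with vertical lines at the medians. Cap1 (7.74), Gmfg (7.17, upstream probe) and Nckap1l (6.55) lie at the right, and all 3 were not well above background on 2 or more primary arrays, so their order is not settled.

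The closest relatives of the 10 genes gave a mixed picture. Actg1, the gamma actin that accompanies Actb in most cells, had levels of 3.32 and 4.86 in KO secondary and 3.42 and 3.76 in WT secondary arrays, against 0.20 and 2.77 in KO primary and -0.04 and 4.68 in WT primary arrays. Its difference between recipients was 2.67 (SE 1.15, limma, adjusted p = 0.363). Actr2 and Actr3, the actin-related core of Arp2/3, differed by 2.97 (SE 1.03, limma, adjusted p = 0.273) and 1.94 (SE 0.85, adjusted p = 0.432). Arpc1b differed by -0.93 (SE 1.99), Arpc4 by -0.45 (SE 0.68) and Arpc5 by 1.05 (SE 0.73), with no subunit called and no test between subunits. Dstn, destrin, a close relative of cofilin, differed by 0.14 (SE 1.77), with 2.49 (SE 2.32) in KO cells and -2.16 (SE 2.32) in WT cells. Dstn and Actr2 were not well above background on either dim array, Actr3 not on the WT one and Arpc5 not on the KO one. Tmsb10, the relative of Tmsb4x, differed by 1.16 (SE 1.74) between recipients. Hcls1, the cortactin of blood cells, differed by 0.77 (SE 0.68).

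E47 and its partners bind E-boxes, stretches of the form CANNTG. The windows from 250 bases before to 50 after the gene start were searched on both strands in the RefSeq promoter table (build GRCm38.p6), which held 11 windows for 9 of the 10 genes. CANNTG was present in 8 of the 11 windows, against 72.3% of all 32851 windows. The form CAGGTG or CACCTG was in 2 of the 11, those of Arpc2 and 1 of Gmfg (20.2% of all windows), and CAGCTG, which also counts as CANNTG, in 1, that of Cap1 (16.3%). The CArG box of serum response factor was in 0 of the 11 (1.63%). The stretches around the matches of Cap1 and Gmfg are shown, with E-boxes in capitals. Among the 10 genes, these had the lowest p between recipients over both genotypes.
Cap1, chr4:122886167-122886226, minus strand: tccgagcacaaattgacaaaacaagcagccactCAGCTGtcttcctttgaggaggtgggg
Gmfg, chr7:28437304-28437403, plus strand: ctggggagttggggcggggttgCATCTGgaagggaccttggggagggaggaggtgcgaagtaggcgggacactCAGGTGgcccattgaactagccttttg
These matches are a description of letters and say nothing of binding. Between KO and WT the difference was -0.31 (SE 1.32, limma, adjusted p = 1) for Cap1 and 0.03 (SE 1.2, adjusted p = 0.988) for Gmfg in secondary recipients, and 0.50 (SE 1.32, adjusted p = 0.995) and -1.01 (SE 1.2, adjusted p = 0.995) in primary recipients. In primary recipients no array measured Cap1 well above background, and replicate 2 of both genotypes left Gmfg at background too, so those values give no reading of a difference or of its absence.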

How the data were processed

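Per the file headers, the deposited scanner output gives linear spot intensity after background subtraction, made with version 10.5.1.1 of Agilent Feature Extraction on a one-colour array of design 014868. The deposited value table holds a ratio to each array's median: its values, multiplied by the median intensity of the array, matched the scanner values, and it served as an alternative only. Controls and spots marked as outliers were left out and spots of a probe averaged, and no spot was saturated. The authors deposited no log2 values for single spots that were used here: log2 levels were computed from the deposited intensity minus the array's 75th percentile.

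Of 41174 probes, 41048 had a value on every array. Symbols came from the files, updated through accession with the RefSeq table of GRCm38.p6. A gene was represented by its brightest probe, that of the highest mean level over the 8 arrays. It was tested if the scanner software marked a probe as well above background on both replicates of some group. limma 3.58.1 in R 4.3.3 (lmFit, eBayes) fitted the 4 groups (4 residual degrees of freedom), or genotype plus recipient for comparisons over all arrays (5 residual degrees of freedom). The fit was also run on simulated data with a smaller spread than these arrays and no dim arrays. That run therefore gives no measure of how well the fit works here. The array number limits the precision. The members, gene lists and tests were chosen with earlier results of these data known. Named beside the 10 genes are the 4 other actin genes of lowest p, their closest relatives, the 5 genes of most similar level, and single markers. Of the lists of other actin genes, 1 is counted in the totals and not reported here by itself. Marker lists of other blood cells were summed by signal. The share of signal was 0.00459% to 0.00802% in secondary and 0.00572% to 0.0199% in primary arrays for monocytes, 0.00978% to 0.0117% and 0.000714% to 0.0142% for B cells, 0.0089% to 0.0268% and 0.00128% to 0.0216% for T and NK cells, 0.0101% to 0.027% and 0.00132% to 0.0156% for megakaryocytes, and 0.00212% to 0.00504% and 0.000561% to 0.00421% for erythroid cells. Alternatives changed the normalization, background correction, filter, probe choice and arrays, added a replicate block, or stayed within a slide.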

Additional observations from a re-analysis of the deposited data

Results flagged for a closer look

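Wdr1 had KO and WT arrays in opposite order in the 2 kinds of recipient, which is why it is listed here: both KO arrays lay below both WT arrays in secondary recipients and above them in primary recipients. The test of this difference gave -11.04 (SE 2.39, limma, adjusted p = 1). It kept its sign in all 18 alternatives, from -13.43 to -8.33, and passed the threshold in none. Where an alternative left arrays out, the sign of the uncentred difference was fixed in advance by the lack of overlap. Those alternatives therefore say nothing about how firm the sign is. Of all genes, 4.47% showed opposite directions without overlap. Each KO group and the WT arrays lay on different slides, so the genotype effect and the slide cannot be told apart.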

How the results depend on the processing

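The count of genes called between recipients over both genotypes depended on processing: 0 in the fit reported, 221 with quantile normalization, 1 with normexp background correction, 30 with the mean of all probes of a gene, and, in alternatives chosen after seeing the data, 367 with scaling by probes measured well above background throughout and 103 probes with each probe fitted alone. Cap1 was called in 3 of 17 alternatives at the gene level (adjusted p = 0.0132 with quantile normalization, 0.0383 with the mean of probes, 0.0114 with the added scaling; range 0.0114 to 0.311) and Gmfg in 2 of 17 (0.0132 and 0.0154; range 0.0132 to 0.603). Their changes stayed positive in these alternatives, from 4.36 to 8.67 and from 2.92 to 8.14. For Cap1, which did not overlap between recipients, leaving arrays out could not turn the uncentred sign. KO against WT in primary recipients gave 0 to 565 calls when single arrays were left out, the 565 without WT primary replicate 1.

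For the median of the 10 genes the same measure of replicate spread, 1.24, was used in every comparison. The median replicate gap of these genes was wider in the primary groups, 4.35 (KO) and 3.6 (WT). The median change of the 10 genes moved by more than 1.24 as follows. Secondary against primary recipients over both genotypes gave 2.09 with quantile normalization, 3.10 within the slide of both WT groups and 2.39 without WT primary replicate 2. The lowest value of that comparison, -0.45, did not move by as much. In KO cells it gave 0.94 with normexp. In WT cells it gave 0.33 over the 6 genes well above background on all 8 arrays, 4.53 without both dim arrays, and 0.92 (without WT primary replicate 1) to 5.01 (without WT primary replicate 2) with single arrays left out. KO against WT in primary recipients ranged from -1.05 (without WT primary replicate 1) to 3.29 (without WT primary replicate 2). The interaction was -2.66 without both dim arrays, and ranged from -3.99 (without WT primary replicate 2) to 0.63 (without WT primary replicate 1) with single arrays left out. The causes were not tested. Of 1232 values of single genes, 110 moved by more than their spread and 142 had the opposite sign, none of them called.

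With the replicate number as a block, 0 genes were called in each comparison and the median between recipients was 0.77. The numbers did not pair the arrays: replicate differences correlated between groups by -0.0261 to 0.149. Precision is limited by 2 arrays per group and by the dim arrays, on which 35.4% and 41.9% of spots were well above background.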
